A study of Mus musculus with 2 samples.

Results

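Introns that stayed in otherwise spliced transcripts were examined in a calf muscle of male mice, the gastrocnemius. An intron was taken when a Known-class model (a transcript model that carries an annotated transcript's name) spliced it and when it lay wholly inside an exon of another model of the same gene with at least 2 exons. Reads of models that splice the intron were counted as spliced and reads of models that hold it inside an exon as retaining. Introns of at least 60 bases with at least 20 such reads and at least 3 retaining reads in each library were kept, which left 514 introns in 356 genes. They were 1.31% of the 39236 introns of that length and depth, called the tested introns here, and those came from 110902 introns of Known-class models with reads. The members were therefore chosen by the reads whose shares are given below, so the shares are a description with no test.

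The series holds 1 group, B6CASTF1/J males (F1 offspring of the C57BL/6J and CAST/EiJ strains) aged 18 to 20 months, with no treatment or second genotype named. It was sequenced as 2 libraries of long cDNA reads, labelled biological replicates 1 and 2 and made from separate samples with 2 µg of RNA each. Both libraries carry the same description, which names the same 2 identifiers. Whether each sample was 1 mouse or a pool is not given in the sources used here. The depth was 1509380 reads in replicate 1 and 1173233 in replicate 2. Markers of skeletal muscle fibres summed to 192537 reads in every 1000000 (CPM) in replicate 1 and 150562 CPM in replicate 2, while the 8 other cell types checked each summed to at most 655 CPM and their part in the results was not tested.

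Splicing removes introns from the primary transcript, and an intron that is not removed is called retained. A retained intron between coding exons usually brings a stop codon into the reading frame, and such transcripts are known to be degraded by nonsense-mediated decay or to be held in the nucleus. A retained intron without a stop and with a length divisible by 3 instead adds amino acids, and an alternative intron inside a coding exon of this kind is called an exitron. Genes of splicing factors and of the kinases that phosphorylate them are known in mammalian cells to carry retained introns through which their own levels are adjusted.

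The sequences below stand for both outcomes. They are read on the gene's strand from annotated GENCODE M21 transcripts on mm10, with the first and last 2 bases of an intron in capitals where they are shown. The first set holds whole introns that an annotated coding exon contains. None of them holds a stop in the reading frame of the transcript that splices it, and all but the Bsg intron have a length divisible by 3.
Bsg intron 5, chr10:79710725-79710839, plus strand: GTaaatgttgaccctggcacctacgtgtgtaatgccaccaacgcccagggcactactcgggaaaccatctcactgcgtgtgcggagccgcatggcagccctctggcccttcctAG
Dmpk intron 8, chr7:19088110-19088187, plus strand: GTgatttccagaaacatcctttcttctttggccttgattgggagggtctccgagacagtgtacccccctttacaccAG
Clcn4 intron 8, chr7:7291727-7291819, minus strand: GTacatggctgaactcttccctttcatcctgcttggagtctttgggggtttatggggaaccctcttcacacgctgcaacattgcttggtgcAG
Fxr1 intron 12, chr3:34058082-34058168, plus strand: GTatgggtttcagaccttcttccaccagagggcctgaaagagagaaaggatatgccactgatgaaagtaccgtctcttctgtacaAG
Hnrnpl intron 7, chr7:28818533-28818643, plus strand: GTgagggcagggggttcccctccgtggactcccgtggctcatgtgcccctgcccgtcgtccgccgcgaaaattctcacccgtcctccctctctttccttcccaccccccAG
Map7d1 intron 7, chr4:126237060-126237155, minus strand: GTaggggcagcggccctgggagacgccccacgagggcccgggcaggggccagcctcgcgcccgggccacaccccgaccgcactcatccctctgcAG

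The second set shows introns with an early stop as 30 bases, the last 9 of the exon and the first 21 of the intron. Capitals mark the intron's first 2 bases and the first stop codon in frame, where it falls inside the stretch.
Ddx5 intron 11, chr11:106783938-106783967, minus strand: gagggctagGTTAGtacaaactcgaattca
Clk4 intron 3, chr11:51272014-51272043, plus strand: tcgcattcgGTaTGAgtggtttgtttttat
Srsf5 intron 5, chr12:80947857-80947886, plus strand: agctggcagGTttgtTGAaatacagttttg
Mat2a intron 8, chr6:72434960-72434989, minus strand: cattgtcagGTAAagatggtaaaacctatt

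The tables give 1 start and 1 end per model, not per read, and this bears on every count that rests on the first or last exon of a model. All 14948 Known-class models checked carried exactly the annotated ends, so how far a read reached into such an end exon is not recorded. Unannotated models have ends specific to a library. Of 1579 cases in which an unannotated model held a tested intron in an end exon and the same intron chain was found in the other library, 255 (16.1%) were not held there. In Myh4, the fast IIB myosin heavy chain, the same chain began at position 67249915 of chromosome 11 in replicate 1, with 513 reads, and at 67249996 in replicate 2, with 363 reads. The intron chr11:67249916-67249995 therefore counted 515 retaining reads in replicate 1 and 2 in replicate 2. An exon that is spliced on both sides has no such open end. The 514 introns were therefore divided by where most of their retaining reads held them: 171 in an exon spliced on both sides, 136 in an end exon of a Known-class model and 207 in an end exon of another model. This division was made after the values were seen.

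The retained share was low for most of the introns, while in a smaller set few of the counted reads were spliced. The median retained share was 7.52% in replicate 1 and 8.15% in replicate 2, against 0% in both libraries over all tested introns, of which 87.9% had no retaining read. The mean share of the 2 libraries was under 10% for 280 introns, 10 to 50% for 139, 50 to 90% for 45 and at least 90% for 50. Of these 50, 37 were held mainly by end exons of Known-class models, 6 by end exons of other models and 7 by exons spliced on both sides. The reach of single reads into end exons is not recorded, so the counts do not show that introns held there were rarely spliced. In this set of 50, 41 lay in an exon of an annotated protein-coding transcript, against 29.6% of the 514 and 0.892% of all tested introns. For those 41 the retained form is a coding transcript's own exon and the spliced form the rarer by this count. The word retained thus describes the read count and not the usual state of the gene. Reads that held at least 1 of the 514 introns numbered 18780 (1.24% of all reads) in replicate 1 and 15816 (1.35%) in replicate 2.

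**Figure D1:**
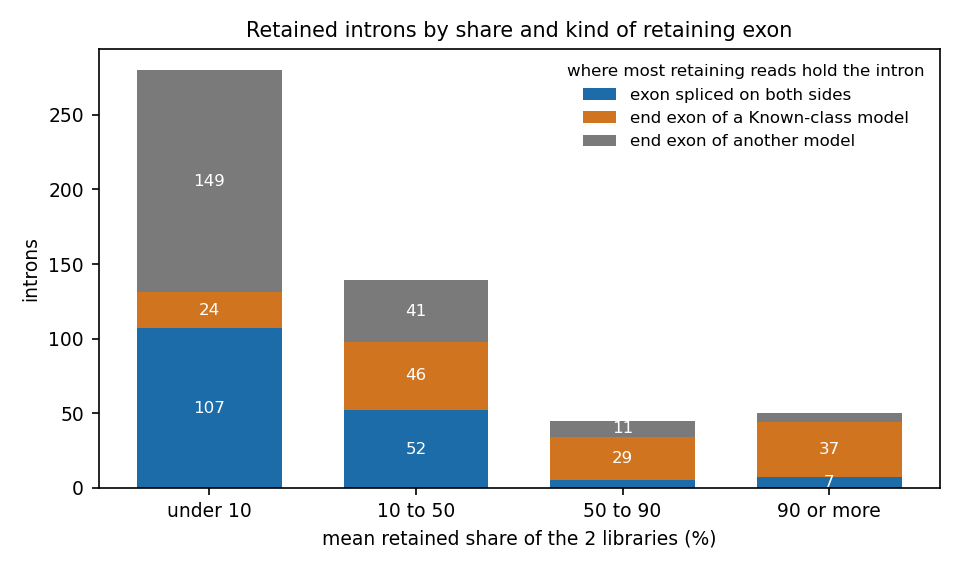
Number of introns (vertical axis) by the mean retained share of the 2 libraries in percent (horizontal axis), with colours for the kind of exon that held the intron in most retaining reads. Introns with shares under 10% number 280, and 37 of the 50 introns at 90% or more were held by end exons of Known-class models.

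The introns held by exons spliced on both sides had a median share of 4.86% in replicate 1 and 4.95% in replicate 2. Between coding exons lay 161 of the 171, a share near the 95.0% of all tested introns. Those held by end exons of Known-class models had medians of 42.5% in replicate 1 and 46.6% in replicate 2. Of the 136, 53 lay between coding exons, 48 in a 5′ UTR and 29 in a 3′ UTR. Over all tested introns 3.68% lay in a 5′ UTR and 0.734% in a 3′ UTR. Those held by end exons of other models had medians of 4.21% in replicate 1 and 4.55% in replicate 2.

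Retained introns were short. Their median length was 221 bases, against 1140 bases over all tested introns, and 35.4% were under 150 bases, against 12.8%. A member must lie wholly inside an exon of another model, which a tested intron need not. How far this requirement shaped the lengths was not tested. They lay first in their transcript in 26.5% of cases and last in 20.6%, against 9.43% and 10.2% of all tested introns. Among the 171 held by exons spliced on both sides, 1 was first and 0 were last. This follows largely from the division itself, because such an exon has a spliced intron on either side. A first or last intron can lie there only where another model extends further. The first and last introns came almost wholly from counts in end exons, where the reach of single reads is not recorded. The share with a length divisible by 3 was 32.9%, against 33.3%. A sequence was at hand for the 296 introns that an annotated exon contains. Of these, 288 began with GT and ended with AG, and the other 8 began with GC, among them Ndufaf4 intron 3. Their median GC content was 55.0%, against 51.5% for the 2886 tested introns with a sequence. The genes with a retained intron were also read more often, with a median of 100.4 CPM in replicate 1 and 98.0 CPM in replicate 2, against 47.0 CPM and 52.8 CPM over the 4172 genes with a tested intron. The minimum of 3 retaining reads is easier to reach in a gene with more reads.

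**Figure D2:**
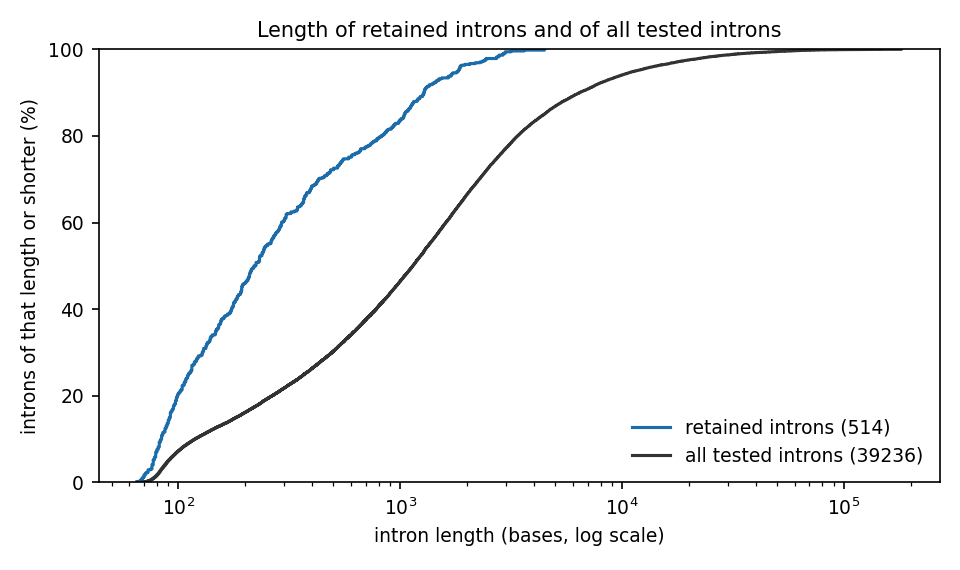
Share of introns of a given length or shorter, in percent (vertical axis), against intron length in bases on a log scale (horizontal axis), for the 514 retained introns and the 39236 tested introns. The curve of the retained introns lies to the left, with medians of 221 and 1140 bases.

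The reading frame could be followed through 188 introns that lay between coding exons and had a sequence. An in-frame stop was present in 147 of them, at a median of 31 bases into the intron. The same count was not made over all tested introns, so 147 of 188 has no background here. Of the other 41, 18 had a length divisible by 3 and 23 did not. An in-frame stop was found in 74 of 95 introns with shares under 10%, in 55 of 64 with 10 to 50%, in 11 of 16 with 50 to 90% and in 7 of 13 with at least 90%. Among introns held by exons spliced on both sides, 68 of 90 had an in-frame stop and 13 had neither a stop nor a length that shifts the frame.

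Several introns held by exons spliced on both sides kept the frame open and were contained in annotated coding exons. Dmpk, the kinase gene whose 3′ repeat expands in myotonic dystrophy, retained its 78-base intron 8 in 260 of 262 reads of replicate 1 (99.2%) and in 268 of 272 reads of replicate 2 (98.5%). Fxr1, an RNA-binding protein of the fragile X family needed in striated muscle, retained its 87-base intron 12 in 102 reads and spliced it in 93 reads of replicate 1 (52.3%, 95% interval 45.1 to 59.5), and retained it in 75 and spliced it in 89 reads of replicate 2 (45.7%, 37.9 to 53.7). The intervals of the libraries overlapped. The Fxr1 balance rests on spliced reads of models outside the Known class. With Known-class models alone as spliced, the mean share over both libraries was 99.0%, against 49.0%.

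Hnrnpl, a nuclear ribonucleoprotein that binds CA-rich RNA, held its 111-base intron 7 in 22.2% of 45 reads in replicate 1 and in 31.0% of 42 reads in replicate 2. Map7d1, a microtubule-associated protein, held its 96-base intron 7 in 22.7% of reads in replicate 1 (156 retaining and 530 spliced) and in 25.3% in replicate 2 (218 and 644). Clcn4, a chloride-proton exchanger, held its 93-base intron 8 in 77.5% of reads in replicate 1 and in 82.2% in replicate 2. Smox, spermine oxidase, held its 408-base intron 5 in 94.8% and 98.2%. Map7d1, Clcn4 and Smox were chosen after their values were seen.

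Bsg stood at the far end. This gene encodes basigin, the membrane partner of lactate transporters, and its 115-base intron 5 was held in 1128 of 1128 reads of replicate 1 and in 667 of 668 reads of replicate 2. The spliced form was seen in 1 read, of replicate 2. The length is not divisible by 3, so the frames of the spliced and the retained form differ downstream.

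Introns with an early stop were found in genes that regulate splicing. Srsf5, an SR protein that promotes exon inclusion, held its 1229-base intron 5 in 17 reads and spliced it in 20 reads of replicate 1 (45.9%, 95% interval 29.5 to 63.1), and held it in 19 and spliced it in 20 reads of replicate 2 (48.7%, 32.4 to 65.2). The first in-frame stop began at base 7 of the intron. Clk4, a kinase that phosphorylates SR proteins, held introns 3 and 4 at nearly the same rate. Intron 3 (1055 bases, stop at base 4) was held in 34.5% of 29 reads in replicate 1 and 45.8% of 24 reads in replicate 2, and intron 4 (391 bases, stop at base 78) in 33.3% of 30 reads and 45.8% of 24 reads. At these depths the intervals ran from 17.3% to 67.2%. None of the models that held the Clk4 introns was of the Known class, so both shares were 0% with Known-class models alone as retaining, where the mean share of the Srsf5 intron was 14.5%, against 47.3%. With Known-class models alone as spliced, Clk4 intron 4 had a mean share of 59.4%, against 39.6%.

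Srsf7, another SR protein, held its 874-base intron 3 in 6 of 30 reads in replicate 1 and 8 of 20 reads in replicate 2, and was chosen here after its values were seen. Srsf1 and Srsf2 entered through end exons. The introns named by the rule are each the only intron of a transcript with no annotated coding sequence. They were held in 19 of 23 and 81 of 90 reads in replicate 1. In replicate 2 it was 30 of 35 and 49 of 52 reads. Srsf2 had a second member, intron 2 of another transcript, which most reads spliced. Of reads over both Srsf2 introns in replicate 1, 7 held both, 4 held intron 2 alone and 74 held the other alone. In replicate 2 the counts were 3, 1 and 45. In all, 4 of 9 SR protein genes with a tested intron had a retained intron, and 2 of 5 genes of their kinases did. Over all genes with a tested intron the count was 356 of 4172 (8.53%), the background for the gene lists below too. Every list lay above it, from 18.1% of ribosomal protein genes to 48.5% of sarcomere genes and 60% of other genes known for retained introns. A share above 8.53% is thus not particular to splicing genes. Among the SR protein genes, Srsf5 and Srsf7 alone had a member held mainly by an exon spliced on both sides. These lists were drawn up with earlier results of the same data known and carry no test.

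Srpk3, the SR protein kinase of muscle, had 6 retained introns among 14 tested. Its 79-base intron 13 had the highest share, with 15 retaining and 136 spliced reads in replicate 1 (9.93%) and 9 and 99 reads in replicate 2 (8.33%). The other 5 lay between 2.78% and 7.08%. Intron 13 has no in-frame stop, and its length is not divisible by 3.

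Ddx5, a DEAD-box RNA helicase that works in splicing and transcription, held its 1265-base intron 11 (chr11:106782694-106783958, minus strand) in 161 reads and spliced it in 190 reads of replicate 1, and held it in 78 and spliced it in 235 reads of replicate 2. The stop lies within the first 5 bases of the intron, as shown above, and an annotated transcript of the nonsense-mediated decay type contains it. Pnisr, an arginine- and serine-rich nuclear protein, held introns 8 and 9 each in 5 of 28 reads in replicate 1 (17.9%) and 11 of 41 in replicate 2 (26.8%), and its last intron in 66.7% of 21 reads and 55.0% of 40 reads, this one in end exons of other models. Of 11 genes in the list of RNA-binding proteins with regulated or detained introns in other cells, 5 had a retained intron (Rbm5, Rbm39, Ewsr1, Ddx5 and Pnisr).

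**Figure D3:**
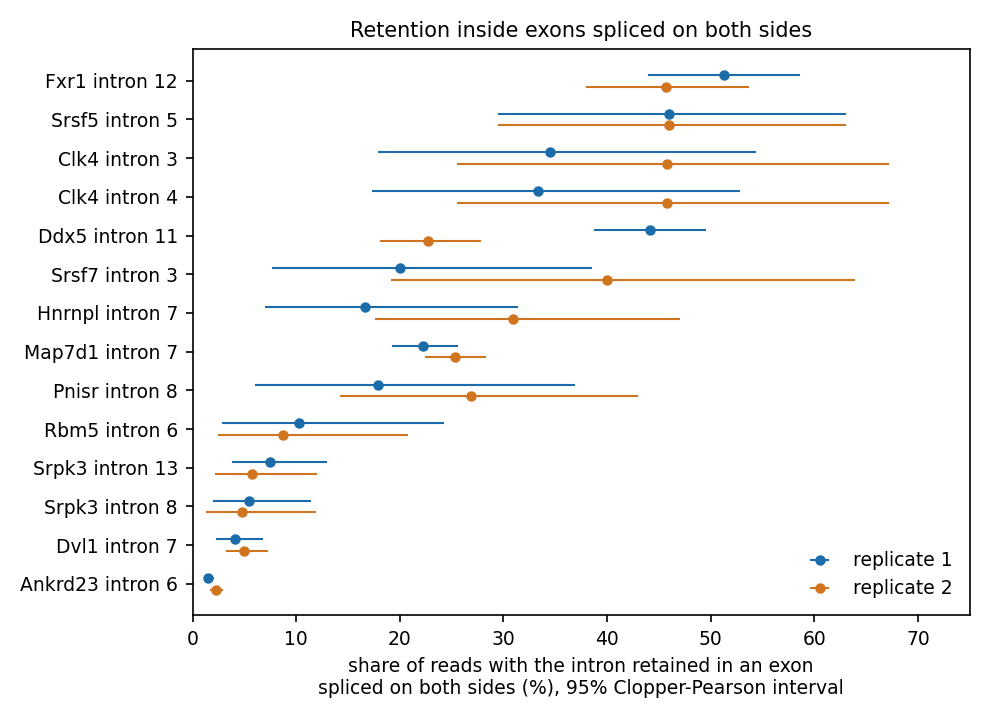
Share of reads that held the intron in an exon spliced on both sides, in percent (horizontal axis), for 14 introns of splicing regulators and other genes, with 95% Clopper-Pearson intervals for counting error, replicate 1 in blue and replicate 2 in orange. The Ddx5 intervals stand apart (44.1% in replicate 1 and 22.7% in replicate 2), and those of the other 13 introns overlap.

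Of 10 genes listed as known for retained or detained introns 6 had a member: Ogt, Mat2a, Eif4a2, Hspa5, Tardbp and Ccnl2. Mat2a makes the methyl donor S-adenosylmethionine, and its last intron is known in mammalian cells to be retained according to the level of that product. It was held in 44 reads and spliced in 166 reads of replicate 1 (21%, 15.7 to 27.1), and held in 34 and spliced in 143 reads of replicate 2 (19.2%, 13.7 to 25.8). The reads lay in end exons, 62 of them of a Known-class model. Hspa5, the chaperone BiP of the endoplasmic reticulum, held its 82-base intron 1 in the 5′ UTR in 24.7% of reads in replicate 1 and 32.8% in replicate 2. Ogt, which attaches N-acetylglucosamine to proteins, held intron 1 in 12 of 24 reads and 25 of 33 reads, also in the 5′ UTR.

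The hnRNP list had 5 genes with a member of 16 (Hnrnpa2b1, Hnrnpdl, Hnrnpf, Hnrnpl and Hnrnpu), and the list of muscle splicing regulators had 2 of 9. Besides Fxr1 this was Mbnl1, the muscleblind protein sequestered in myotonic dystrophy, whose 232-base intron was held in 30.3% of 33 reads in replicate 1 and 42.3% of 52 reads in replicate 2, in end exons of unannotated models. The mean share of the Mbnl1 intron was 93.3% with Known-class models alone as spliced and 0% with Known-class models alone as retaining, against 36.3%. Hnrnpf intron 1 was held in 35 of 39 and 46 of 46 reads and Hnrnpa2b1 intron 11 in 13.1% and 6.52% of reads, again by such end exons. The mean share of the Hnrnpa2b1 intron was 23.8% with Known-class models alone as spliced, against 9.80%.

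Of the 136 introns held by end exons of Known-class models, 37 had shares of at least 90%, 29 of 50 to 90%, 46 of 10 to 50% and 24 under 10%. Those named next were taken for the highest shares or the most retaining reads, except Jph2, which comes from the list of calcium handling genes. In the 5′ UTR these were intron 1 of Ndufa4, a respiratory chain subunit, with 980 of 981 reads in replicate 1 and 454 of 454 in replicate 2, intron 1 of Retreg1, a receptor for the turnover of the endoplasmic reticulum (99.3% and 99.7%), and intron 1 of Spop, a substrate adaptor of a ubiquitin ligase (92.7% and 93.6%). Uqcrq, a complex III subunit, and Cryab, the small heat-shock protein alpha B-crystallin, held their first introns in 94.1% and 97.4% of reads in replicate 1 and in 93.7% and 98.2% in replicate 2. The same applied to Atf4, a transcription factor of the stress response (31 of 31 and 36 of 37 reads), and to Jph2, which ties the T-tubule to the sarcoplasmic reticulum (95.6% and 89.7%). The Jph2 share was 0% where the retaining exon had to reach at least 20 bases beyond the intron on each side.

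In the 3′ UTR, Nipsnap2 intron 10 was held in 1190 of 1202 reads in replicate 1 and in 1220 of 1227 in replicate 2, the most retaining reads of any member. Glo1, which detoxifies methylglyoxal, held intron 6 in 92.7% and 96.0% of reads. Arpp19, an inhibitor of protein phosphatase 2A, held intron 4 in 98.6% and 99.4%, and Dnajb11, a chaperone of the endoplasmic reticulum, held intron 10 in 98.0% and 100%. Nfe2l1, a transcription factor for proteasome genes, held the 1464-base intron 4, which lies between coding exons, in 311 of 312 and 501 of 502 reads. Ndufaf4, an assembly factor of complex I, held intron 3 in 58 of 58 and 44 of 45 reads, and Sparc, a matrix glycoprotein, held intron 1 in 91 of 92 and 60 of 60. These shares take every read of the model as reaching past the intron.

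Unannotated models held a few first introns by their end exons in most reads. Pacsin3, an endocytic adaptor, held its 2291-base intron 1 in 135 of 136 reads in replicate 1 and 103 of 104 in replicate 2. Prkab2, the muscle beta subunit of AMP-activated kinase, held its 219-base intron 1 in 90.9% of 517 reads and 91.8% of 450 reads.

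Of 33 sarcomere genes with a tested intron 16 had a retained intron. These held 40 of the 512 tested introns of the list (7.81%), against 1.31% of all tested introns, and 14 of the 40 were held mainly by exons spliced on both sides. The list holds some of the most deeply read genes of the muscle, in which 3 retaining reads can be a very low share. In Acta1, skeletal actin, all 6 introns were members with shares from 0.00618% to 0.0314%.
Tnnc2, fast troponin C, had 4 members of 5 tested introns, the highest at 0.0388% in replicate 1 and 0.0233% in replicate 2. Myh4 introns 1 and 10 had more reads behind them, 429 and 440 retaining reads in replicate 1 and 498 and 386 in replicate 2, with shares of 2.23% and 1.96% in replicate 1 and 2.40% and 1.56% in replicate 2. Myl1, a fast myosin light chain, held intron 1 in 4.32% of 12559 reads in replicate 1 and 6.21% of 4506 in replicate 2. Nearly all these Myh4 and Myl1 reads lay in end exons of unannotated models. With Known-class models alone as spliced, the mean shares of Myh4 introns 1 and 10 over both libraries were 6.51% and 5.88%, against 2.31% and 1.76%.

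Of 19 glycolysis and glycogen genes 6 had a member, and Aldoa intron 2 had 340 retaining reads in replicate 1 and 183 in replicate 2 (1.83% and 2.10%). Of these, 2 reads in each library lay in exons spliced on both sides (0.0110% and 0.0234%). With Known-class models alone as spliced, the mean share of Aldoa intron 2 over both libraries was 18.0%, against 1.96%. Pfkm, muscle phosphofructokinase, held its 366-base intron 7 in 1.13% and 0.831% of reads, 62 of the 86 retaining reads in exons spliced on both sides, and its mean share was 7.77% with Known-class models alone as spliced, against 0.980%. Eno3, the muscle enolase, held intron 7 in 0.899% of reads in replicate 1 and 0.311% in replicate 2. Counted only in exons spliced on both sides, the Eno3 share was 0.0299% in replicate 1 (3 reads) and 0.131% in replicate 2 (8 reads), so the order of the libraries turned. Of 19 genes of oxidative phosphorylation 4 had a member, such as Ndufv1, a complex I subunit (intron 4, 0.773% and 1.73%), and Cyc1, cytochrome c1 (intron 1, 1.09% and 1.44%). Calcium handling had 2 genes of 10, Jph2 and Cacna1s, the voltage sensor, whose intron 29 was held in 2.93% of reads in replicate 1 and 0.891% in replicate 2. In exons spliced on both sides Cacna1s intron 29 was held by 1 read in replicate 1 (0.121%) and 2 reads in replicate 2 (0.163%).

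Of 72 ribosomal protein genes 13 had a member, and none of these introns was held mainly by an exon spliced on both sides. Rps27a intron 1 was held in 17 of 133 reads in replicate 1 and 12 of 48 reads in replicate 2, and Rpl41 intron 1 in 3.72% of reads in replicate 1 and 3.65% in replicate 2.

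The minimum number of retaining reads fell among very low shares in deep genes. Just inside it stood Ckm, muscle creatine kinase, with 5 retaining reads in replicate 1 and 3 in replicate 2 (0.00525% and 0.00522%), and just outside it another Ckm intron with 4 and 2 (0.00417% and 0.00347%). At the minimum of 20 reads, Rps21 intron chr2:180257448-180257620 entered with 10 of 43 and 5 of 20 reads, and an intron of Mcrip2 stayed out with 13 of 32 and 4 of 19.

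The 2 libraries gave similar shares. Across the 514 introns Pearson's r was 0.979 and Spearman's rho 0.963, a description over introns that share libraries and partly genes, and the introns were chosen for reads in both. The median absolute difference was 1.68 percentage points. It was under 5 points for 386 introns and at least 10 points for 55. The share was higher in replicate 1 for 233 introns and in replicate 2 for 278.

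**Figure D4:**
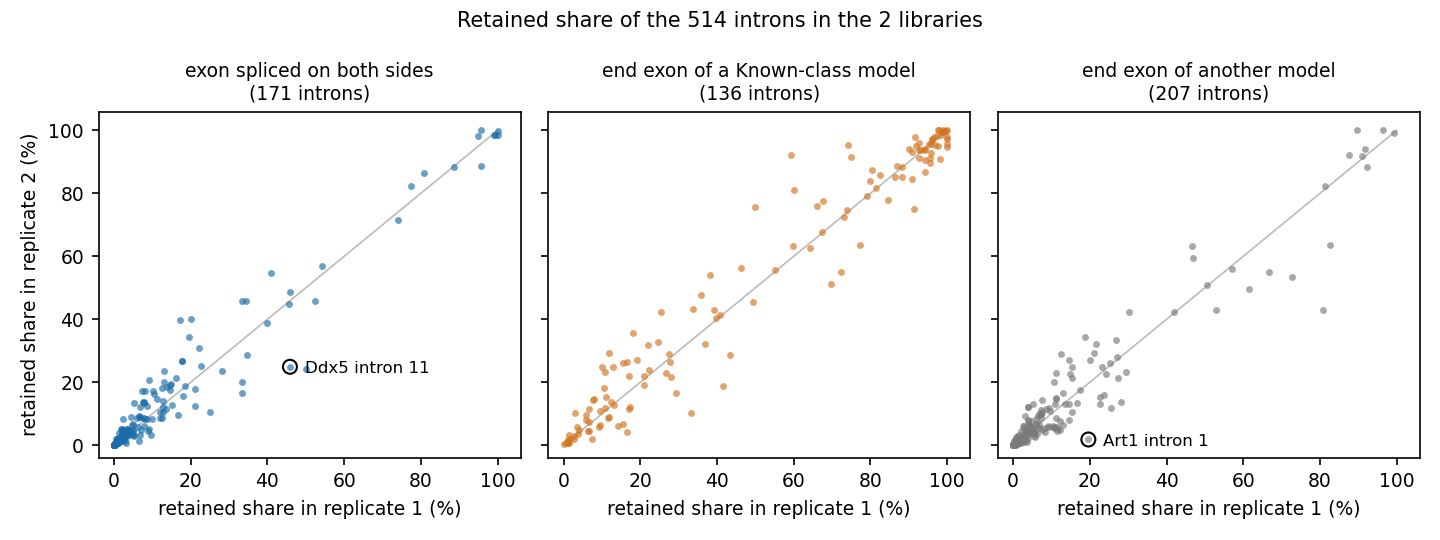
Retained share in replicate 1 (horizontal axis, percent) against replicate 2 (vertical axis, percent) for the 514 introns, in panels by the kind of retaining exon, with the line of equal shares. Points lie along the line in each panel, and the circled Ddx5 and Art1 introns are the called ones, both higher in replicate 1.

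Spliced and retaining reads were compared between the libraries by Fisher's exact test, two-sided and adjusted by Benjamini-Hochberg over all 39236 tested introns. It called 2 of the 514 members at an adjusted p below 0.05 and a difference of at least 10 points, both higher in replicate 1. Over all tested introns 5 were called (0.0127%), 3 of them higher in replicate 1 (0.00765%), and over the 729 with at least 6 retaining reads, the fewest a member can have, also 5 (0.686%). The 2 of 514 lie near the second background, but the 2 sets are not fully alike. A member needs at least 3 retaining reads in each library, so an intron held in 1 library alone cannot be a member. The called introns of Rpl3l, Qk and H2-Ke6, with 0 retaining reads in 1 library, are of this kind. This limit holds for each comparison of members with the 729. At any size of difference 6 members passed, against 27 of all tested introns (0.0688%). An unadjusted p below 0.05 was reached by 50 members, against 146 of all tested introns (0.372%) and 120 of the 729 (16.5%). Such a test compares these libraries, not conditions, and has no replicate check.

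Ddx5 intron 11 was held in 45.9% of reads in replicate 1 (95% interval 40.6 to 51.2), against 24.9% in replicate 2 (20.2 to 30.1), with an adjusted p of 4.35e-05 by Fisher's exact test. Counted only in exons spliced on both sides it was held in 150 of 340 reads in replicate 1 (44.1%) and in 69 of 304 in replicate 2 (22.7%), with an adjusted p of 0.000469 by the same exact test. Art1, a mono-ADP-ribosyltransferase of the muscle surface, held its 4468-base intron 1 in 95 of 484 reads in replicate 1 (19.6%) and in 5 of 274 in replicate 2 (1.82%), with an adjusted p of 3.07e-11 by Fisher's exact test. All of its retaining reads lay in end exons of unannotated models. For 82 of them, the chain that held the intron in replicate 1 began at position 102101743 of chromosome 7, and its match in replicate 2, with 93 reads, began inside the intron at 102102530, so the call is lost when such ends are left out.

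Some introns of the same gene were held on the same reads, and how many depended on which exons count. Of 240 pairs of members of a gene with at least 20 reads over both introns in each library, 118 (49.2%) were associated in the same direction in both libraries, each with an adjusted p below 0.05 (Fisher's exact test). They came from 45 genes, 117 were held together and 1 apart. The 240 include overlapping introns that share retaining reads, and with these counted once 107 of 218 pairs were associated. In 59 of the 118 pairs every read that held both held them within the same exon. An end exon that runs across neighbouring introns counts for both, and when only exons spliced on both sides counted, a setting added after the values were seen, 34 of 219 pairs in 20 genes were associated, all of them held together. Many of the 34 rested on few reads. Actn3 introns 12 and 15 were held together by 1 read in each library, and so were Eno3 introns 5 and 8. With reads of Known-class models alone 2 pairs were associated.

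**Figure D5:**
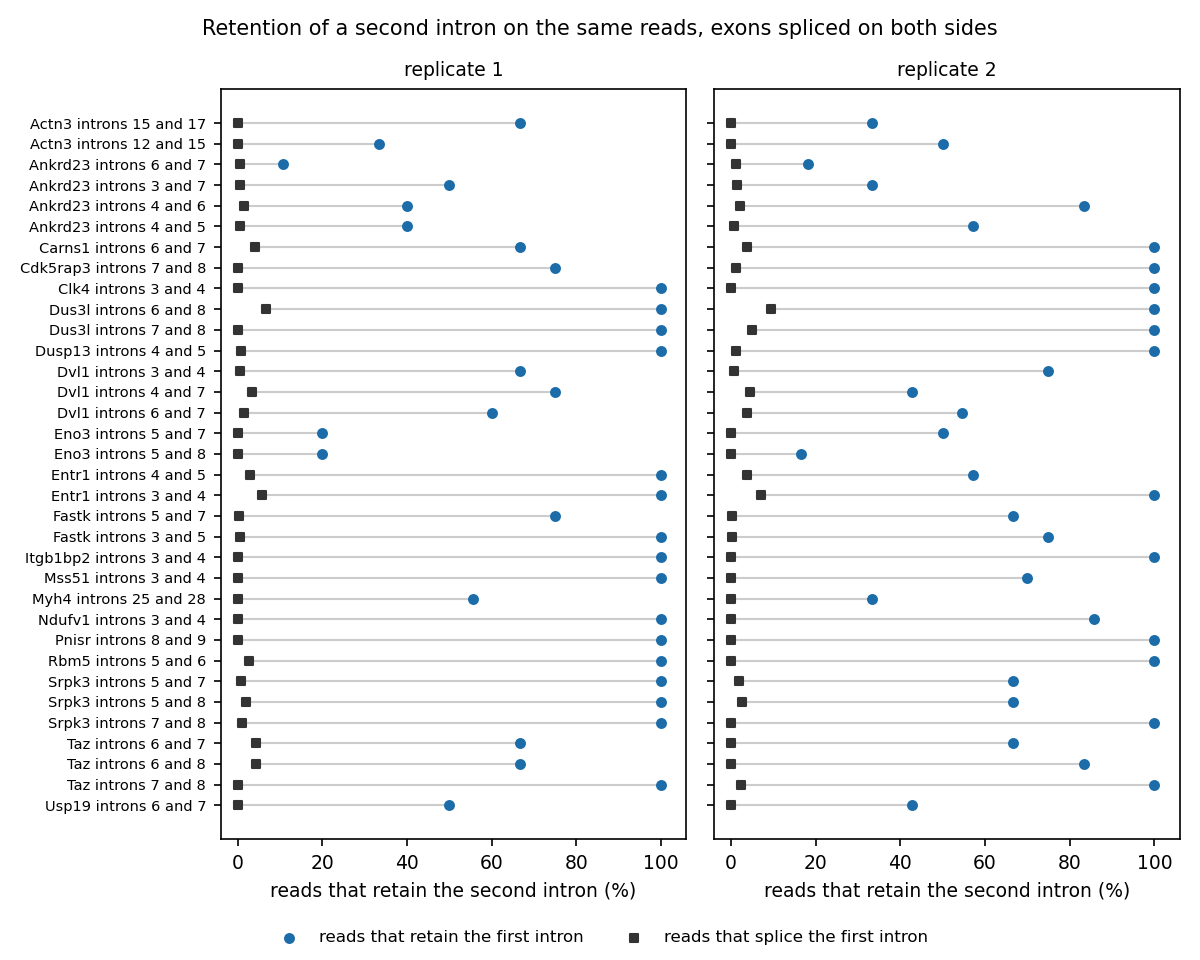
Share of reads that held the second intron of a pair, in percent (horizontal axis), among reads that held the first intron (blue circles) and among reads that spliced it (black squares), for the 34 associated pairs counted in exons spliced on both sides, with a panel per library. Blue lies to the right of black in every row of both panels. Most blue points of replicate 1 and many of replicate 2 rest on 1 to 5 reads.

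Clk4 gave the plainest case, though in every pair of this paragraph the reads that held both introns held them within the same exon. An exon spliced on both sides that runs across neighbouring introns counts for both, as an end exon does. Counted in exons spliced on both sides, 10 reads of replicate 1 held introns 3 and 4 together, 19 spliced both and none held just 1 of them, and in replicate 2 the counts were 11, 13 and 0. The adjusted p by Fisher's exact test was 2.19e-06 in replicate 1 and 5.48e-06 in replicate 2. Pnisr introns 8 and 9 were also held together, with 5 reads that held both and 23 that spliced both in replicate 1, and 11 and 30 in replicate 2. In Srpk3, introns 7 and 8 were held together in 4 reads of each library, and a single read in replicate 1 held only intron 8. Itgb1bp2, melusin, held introns 3 and 4 together in 3 and 4 reads, against 36 and 25 reads that spliced both. In Ankrd23, a stretch-responsive ankyrin repeat protein with 7 members, the association was partial. Of reads that held intron 6 in an exon spliced on both sides, 10.6% also held intron 7 in replicate 1 and 18.2% in replicate 2, against 0.556% and 1.11% of reads that spliced intron 6.

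Counted in any exon, the lowest adjusted p values belonged mostly to contractile genes, some of them among the most deeply read. Mylpf, the fast regulatory light chain, held intron 4 in 57 of 192 reads that held intron 3 in replicate 1 and in 16 of 46 in replicate 2, and in none of 16166 and 4552 reads that spliced it. Tnni2, fast troponin I, held intron 2 in 75.5% and 55.6% of the reads that held intron 1. Reads that held both were also counted for Tpm2 introns 3 and 4 (13 reads with both in each library), Tpi1 introns 2 and 3 (18 and 12 reads), Tpm1 introns 8 and 9 (8 and 6 reads) and Ankrd23 introns 5 and 6 (18 and 12 reads). In all 6 pairs every read that held both introns held them within the same exon, and none of these pairs is among the 34 above. The pair held apart was introns 1 and 2 of Tmem52, chosen after its values were seen. Of its reads that held intron 1, 14.9% held intron 2 in replicate 1 and 17.2% in replicate 2, against 48.2% and 46.3% of those that spliced intron 1.

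A single member was found in 262 of the 356 genes and 2 or more in 94. The other 2975 tested introns of these genes fell short of 3 retaining reads in at least 1 library by the rule itself, and 75.5% of them had no retaining read. Every retaining read comes from a model of at least 2 exons, so it is spliced at 1 place or more by construction. Retaining reads carried a median of 5.97 other spliced introns, against 6.99 in reads that spliced the same intron, and for 372 of the 514 the number was lower in the retaining reads.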

How the data were processed

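The authors deposited, for each library, a table of read counts of transcript models, not normalized, with exon coordinates in a matching annotation on mm10. Per the README files, reads were aligned to mm10 with GENCODE M21, and per the file headers models were named by TALON, which sorts them into Known, ISM (part of a known intron chain), NIC (known splice sites joined anew), NNC (a splice site outside the annotation) and Genomic classes. The sources used here do not give the aligner, the platform or filters. Introns were taken from the exon coordinates, and counts were summed as spliced or retaining over all models of a gene. Shares carry exact 95% Clopper-Pearson intervals, which like the floor of 3 reads for a count of 0 cover counting error only. Libraries were compared by Fisher's exact test with Benjamini-Hochberg adjustment over 39236 introns, and pairs of introns by Fisher's exact test on reads that carry both, within each library. Both tests count reads, so their p-values cover only the sampling of reads in these 2 libraries and no spread between animals. The labels do not tell whether samples were single mice. Python 3.11.15 was used with numpy 2.4.6, scipy 1.17.1, pandas 2.3.3 and matplotlib 3.10.9, and the tests were tried on simulated data.

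Coding place, frame and sequences came from GENCODE M21 transcripts on GRCm38 (mm10), and each intron was described in the spliced annotated transcript with most reads: Bsg-203, Dmpk-203, Clcn4-203, Fxr1-208, Hnrnpl-201, Map7d1-203, Ddx5-201, Clk4-201, Srsf5-201 and Mat2a-201 for those printed. Introns were named by share (12 highest), by retaining reads (12 highest), by call, by gene list (up to 3 a list), by pair (6) and at the thresholds, and overlapping introns were given once. The members and gene lists were chosen with earlier results of these data known. Overlapping genes on the other strand were not separated. An intron that the rule also named is not reported here.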

Additional observations from a re-analysis of the deposited data

Results flagged for a closer look

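Reads of single-exon models, which the counts above leave out because such reads show no splicing, also held retained introns. There were 1391 in replicate 1 and 1028 in replicate 2, and 22 introns were held by more than 3 of them in each library, the limit that a count of 0 allows. An intron of Tnnt3, fast troponin T, had 372 and 94 such reads, beside 29 and 23 retaining reads of spliced models. Nfe2l1 intron 4 had 119 and 109, beside 311 and 501.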

How the results depend on the processing

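The number of members rested mainly on which exons count as retaining. It was 514, and 153 where the retaining exon had to be spliced on both sides, 152 with Known-class models alone as retaining, and 286 where end exons of unannotated models did not count, an alternative added after the data were seen. At least 5 retaining reads gave 330, at least 1 gave 1540, and a single library without the other 879 to 938. The other alternatives kept the count within 1.5 times. The median over members of the mean share of both libraries was 7.83%. It was 4.98% with exons spliced on both sides, 40.6% with Known-class retaining models, 12.8% without unannotated end exons, 8.65% with Known-class spliced models, 8.56% with single-exon models added, 3.99% at 50 reads, 12.5% at 10 reads, 8.66% at 100 bases, 16.8% at 5 retaining reads, 2.33% at 1, and 5.56% to 5.81% without 1 library. The cause of these shifts was not tested.

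The 5 introns called between the libraries became 1, Ddx5 intron 11, with exons spliced on both sides, with Known-class retaining models or without unannotated end exons, and 23 with single-exon models added, 27 at any difference and 21 adjusted over introns with at least 6 retaining reads. The 2 called members became 1 in each of the first 3 of these settings and at 20 points, 4 with single-exon models added, 6 at any difference and 5 adjusted over fewer introns. At an unadjusted p below 0.05, 50 members and 146 tested introns differed. The 118 associated pairs became 34 with exons spliced on both sides and 2 with reads of Known-class models alone. They were 133 to 146 when 1 library had to pass. Leaving out Genomic-class models changed none of these counts. Of 50 named introns, the mean share moved by at least 1 SD of the 2 libraries in 18 with Known-class spliced models, in 26 with Known-class retaining models, in 32 with exons spliced on both sides and in 17 without unannotated end exons. No paired analysis was possible because there is 1 group of 2 libraries, and a library comparison cannot be made without either of them. Depth limits introns such as those of Clk4, with 24 to 30 reads a library.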
